A study of Homo sapiens with 10 samples.

Results

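The genes described are the subunits of the proteasome with its assembly chaperones, activators and inhibitor: every gene whose annotated symbol is PSMA, PSMB, PSMC, PSMD, PSME, PSMF or PSMG followed by a number only, without PSMB8, PSMB9 and PSMB10, which are counted among other pathway genes. The array type used for HN5 named 40 such genes of 18665, and that used for FaDu named 41 of 20046. In HN5, 37 of the 40 were tested among 9549 genes, and in FaDu 38 of the 41 were tested among 9997. PSMA7, PSMC5, PSMD7 and PSMD13 have no named probe in the annotation used here and were not analysed.

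HN5, from a tongue carcinoma, and FaDu, from a pharyngeal carcinoma, are human head and neck cancer (HNC) cell lines. The groups are HN5 cells transfected with the miR-7 precursor (2 arrays) or with miR-NC, a negative-control precursor (2 arrays), and FaDu cells labelled miR-7 (3 arrays) or miR-NC (3 arrays). RNA was taken 24 h after the transfection, which was transient and not a stable change of the line. Each array is labelled as a biological replicate, and each line was hybridized to its own type of Illumina BeadChip.

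The proteasome is the protease that removes most ubiquitin-tagged proteins. Its 20S core is built of alpha rings, which gate the entry, and beta rings, which hold the catalytic sites, and the 19S particle recognises, unfolds and feeds the substrate with the help of its ring of ATPases. Separate activators open the same core: PSME1 and PSME2 together form the interferon-inducible PA28 alpha/beta ring that is known for antigen processing, PSME3 forms the nuclear PA28 gamma ring, which promotes ubiquitin-independent turnover of regulatory proteins, and PSME4 is the large nuclear activator PA200.

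The agent that separates the groups is miR-7, and its mature strand is shown because the seed is what it pairs with a transcript. The sequence is from RefSeq (GRCh38.p14). The entries read here place it at chr9:83969811-83969834 on the minus strand (MIR7-1) and at chr19:4770700-4770723 on the plus strand (MIR7-3). These need not be all of its loci. Capitals mark the seed, bases 2 to 8 from the 5′ end, and a fully paired site in a transcript reads GUCUUCC.
hsa-miR-7-5p: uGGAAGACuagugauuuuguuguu
No transcript sequence was used here, so seed sites in the proteasome genes were not counted.

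Values are log2 intensities background-corrected and then quantile-normalized line by line, and a difference is miR-7 minus miR-NC on that scale. Median scanner intensities were 114.5 to 158.5 on the HN5 arrays and 114.4 to 148.9 on the FaDu arrays, with 14158 to 14726 and 16034 to 17424 probes detected (detection p-value under 0.01). HN5 miR-7 replicate 2 stood apart: across genes it correlated with the other HN5 arrays at 0.909 to 0.928, whereas these correlated with each other at 0.970 to 0.987. FaDu arrays correlated at 0.994 to 0.996 within a precursor and at 0.972 to 0.974 between precursors. The 5 squamous epithelial markers with a named probe (KRT5, KRT14, EPCAM, CDH1 and SFN) were detected on every array of both lines, and the leukocyte markers PTPRC and CD3E on none. CD14 was detected on every array of both lines, as were PECAM1 and COL1A1 in HN5 and CDH5 in FaDu. Among these markers of other cell types, CDH5 and CD14 were called in FaDu. CDH5 averaged 6.44 in arrays labelled miR-7 and 5.95 in arrays labelled miR-NC, and CD14 averaged 8.72 and 9.10. VWF, an endothelial marker (5.98 and 4.79 in the same order), was detected on 3 of 6 FaDu arrays. It was kept for testing only through the group where it was higher, so its call carries no weight. The squamous markers KRT5, KRT14 and SFN were also called in FaDu, with log2 fold changes of 0.45, 0.68 and 0.50, whereas EPCAM and CDH1 were not. The part of these markers in the results was not tested. The 4 fibroblast markers were detected on no FaDu array. The number of arrays limits the precision.

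PSME3 carried the largest difference of the proteasome genes in each line. In HN5 it measured 10.34 and 10.86 with miR-7, against 12.40 and 11.89 with miR-NC. Both miR-7 arrays lay below both miR-NC arrays. The means were 10.60 ± 0.37 with miR-7 and 12.14 ± 0.36 with miR-NC (SD, n = 2 each), a log2 fold change of -1.55 (standard error 0.28, 95% interval -2.25 to -0.84) or 2.92-fold lower, with an adjusted p of 0.118 from limma (Benjamini-Hochberg over the 9549 genes). PSME3 thus missed the threshold of 0.05 in HN5, where it was the 205th lowest of 9549 log2 fold changes. Without miR-7 replicate 1 the log2 fold change was -1.29 (limma adjusted p = 0.00029) and without miR-7 replicate 2 it was -1.79 (adjusted p = 0.000216). These fits leave 1 miR-7 array and take the spread from the miR-NC arrays alone. Without miR-NC replicate 1 it was -1.31 (adjusted p = 0.748) and without miR-NC replicate 2 -1.79 (adjusted p = 0.323). In RNA from whole cultures, fewer cells with a transcript and less of it per cell cannot be told apart.

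FaDu values follow the array labels, and they run against the direction that the study describes. An exchange of the 2 FaDu labels was not tested, and it would turn the sign of every FaDu difference given here. EGFR and TGFA, which the study describes as lowered by miR-7 in FaDu cells and followed there by western blot and RT-qPCR, bear on this. EGFR, the receptor, averaged 9.52 in FaDu arrays labelled miR-7 and 7.94 in those labelled miR-NC (log2 fold change 1.57, limma adjusted p = 2.64e-06), beside -1.67 in HN5. TGFA, a ligand of that receptor, averaged 8.39 in FaDu arrays labelled miR-7 and 7.02 in those labelled miR-NC (1.37, limma adjusted p = 1.52e-05), beside -1.22 in HN5 (adjusted p = 0.146). Across the 8430 genes compared, which are not independent replicates, the log2 fold changes of HN5 and of FaDu as labelled correlated at -0.42 (Pearson).

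PSME3 measured 10.84, 10.79 and 10.83 in the FaDu arrays labelled miR-7, against 7.44, 7.34 and 7.67 in those labelled miR-NC. The groups did not overlap and lay more than 3 log2 units apart. The means were 10.82 ± 0.029 in arrays labelled miR-7 and 7.48 ± 0.17 in arrays labelled miR-NC (SD, n = 3 each). PSME3 was thus 10.1-fold higher, with a log2 fold change of 3.34 (standard error 0.092, 95% interval 3.13 to 3.55, limma adjusted p = 5.57e-07). By size this was number 1 of the 9997 log2 fold changes. The size depended on the background correction: it was 2.70 without that correction and 2.49 on the authors' log2 values.

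PSME3 has a second detected probe, which can be read as a repeat of the measurement on the same arrays. In HN5 the deposited intensities of the brighter probe were 1440.9 and 1439.6 with miR-7, against 6961.3 and 3614.7 with miR-NC. The other probe gave 1037.6 and 774.0 with miR-7, against 4728.6 and 3233.4 with miR-NC. On both probes the miR-7 arrays were the dimmer ones. With the other probe in place of the brighter one, a choice made after the values were seen, PSME3 fell by 1.90 on the log2 scale in HN5 and passed the threshold (limma adjusted p = 0.0444). In FaDu the brighter probe gave 1758.9, 1943.2 and 1794.3 in arrays labelled miR-7, against 238.6, 263.1 and 379.2 in arrays labelled miR-NC, and the other probe gave a log2 fold change of 3.29 beside the 3.34 of the brighter one.

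PSME1 and PSME2, the partners of the PA28 alpha/beta ring, were not called in either line, and their 95% intervals lay within 1.5-fold in FaDu but not in HN5. PSME1 measured 13.90 and 13.94 with miR-7, against 13.72 and 13.77 with miR-NC in HN5 (log2 fold change 0.18, 95% interval -0.26 to 0.62, limma adjusted p = 0.665). In FaDu it was 12.44, 12.44 and 12.41 in arrays labelled miR-7, against 12.43, 12.37 and 12.44 in arrays labelled miR-NC (log2 fold change 0.020, 95% interval -0.13 to 0.16, adjusted p = 0.829 from limma). The FaDu groups overlapped, and the HN5 groups lay apart by less than the error of the fit allows to call. A second, much dimmer kept probe of PSME1 gave -0.14 in HN5, where 1 miR-7 array detected it, and 0.22 in FaDu. It was not called in either line (limma adjusted p over probes 0.885 and 0.221).

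PSME2 measured 12.99 and 12.89 with miR-7, against 12.54 and 12.72 with miR-NC in HN5 (log2 fold change 0.31, 95% interval -0.15 to 0.78, limma adjusted p = 0.495). Its FaDu values were 12.54, 12.42 and 12.50 in arrays labelled miR-7, against 12.33, 12.40 and 12.43 in arrays labelled miR-NC (log2 fold change 0.10, 95% interval -0.056 to 0.26, adjusted p = 0.272). PSME4, the PA200 activator, measured 11.90 and 11.74 with miR-7, against 11.95 and 11.78 with miR-NC in HN5 (log2 fold change -0.046, limma adjusted p = 0.927). In FaDu PSME4 was 10.37, 10.54 and 10.48 in arrays labelled miR-7, against 10.70, 10.63 and 10.57 in arrays labelled miR-NC (log2 fold change -0.17, 95% interval -0.34 to 0.0035, adjusted p = 0.106).

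**Figure D1:**
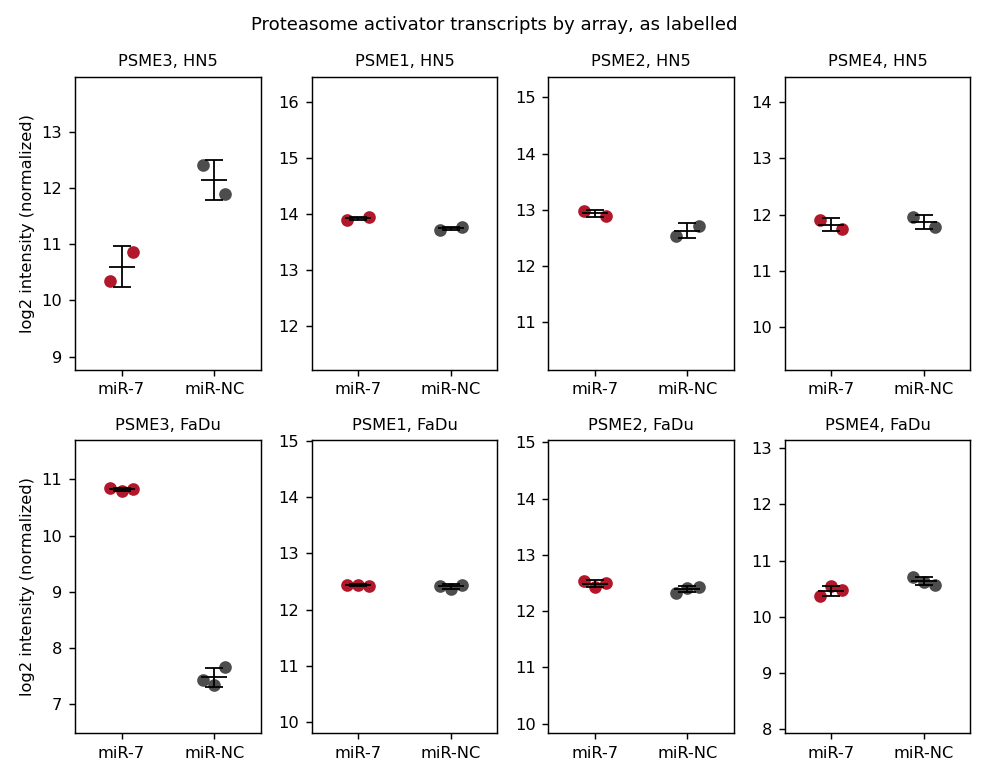
Log2 intensity of PSME3, PSME1, PSME2 and PSME4 on each HN5 array (upper panels) and FaDu array (lower panels), miR-7 in red at left and miR-NC in grey at right as labelled. Points are arrays, bars are mean ± SD, and all panels span the same number of log2 units. PSME3 lies at 10.34 and 10.86 with miR-7 below 12.40 and 11.89 with miR-NC in HN5, and at 10.79 to 10.84 above 7.34 to 7.67 in FaDu, while the means of the other activators differ by at most 0.31.

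Setting PSME3 against its relatives within each array removes what an array's 2 probes share. The level of 1 probe against another has no meaning in itself, so the change of that offset between precursors is what is compared. PSME3 minus PSME1 was -3.56 and -3.08 with miR-7, against -1.32 and -1.87 with miR-NC in HN5, a difference of -1.72. In FaDu it was -1.60, -1.66 and -1.58 in arrays labelled miR-7, against -4.99, -5.03 and -4.77 in arrays labelled miR-NC, a difference of 3.32. The groups did not overlap in either line. Against PSME2 the differences were -1.86 in HN5 and 3.24 in FaDu, again with no overlap. A two-sided exact permutation test gave p = 0.333 for both offsets in HN5 and p = 0.1 for both in FaDu, which are the smallest values that 2 against 2 and 3 against 3 arrays allow.

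Across the 37 proteasome genes tested in HN5, limma called 0 lower and 0 higher (adjusted p under 0.05), where 0.126% of all genes tested were lower and 0.178% higher, 0.304% in all. At an unadjusted p under 0.05, 1 gene passed by limma, PSME3, and 4 passed by the methods' t-test, of which 0 passed after adjustment. By the thresholds of the study's methods on limma's p-values (unadjusted p under 0.05, at least 1.5-fold), 1 was lower, PSME3, and 0 higher. The share of all genes was 4.41% lower and 6.01% higher, or 10.4% in either direction. With the p-values of the methods' t-test, 0 were lower by these thresholds, so PSME3 did not pass. The median log2 fold change of the 37 genes was 0.13, beside 0.043 over all genes tested. Of the 37, 14 were below 0 and 23 above, and over all genes tested 4312 were below 0 and 5237 above. With median scaling in place of quantile normalization the median of all genes moved to -0.15 and that of the 37 to 0.0017. Apart from PSME3 the log2 fold changes ran from -0.86 to 0.41, and 34 of the 36 were smaller than 1.5-fold in size. The 95% interval lay wholly within 1.5-fold for 11 of these 36.

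In FaDu as labelled, limma called 7 of the 38 genes tested lower and 5 higher, against 21.8% and 20% of all genes tested and 41.8% in either direction. Neither count stood above that background. By the methods' thresholds on limma's p-values 1 was lower, PSMD3, and 1 higher, PSME3. The share of all genes was 5.31% lower and 7.28% higher, or 12.6% in either direction. With median scaling 1 was lower, PSMD3, and 3 were higher, PSME3, PSMA4 and PSMD9, beside 1481 lower and 1221 higher of the 9997 genes. The median log2 fold change was -0.038, beside -0.029 over all genes tested, and the median size was 0.11, beside 0.21. Except for PSME3 and PSMD3, all 36 genes differed by less than 1.5-fold, and for 35 of them the 95% interval lay wholly within 1.5-fold.

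**Figure D2:**
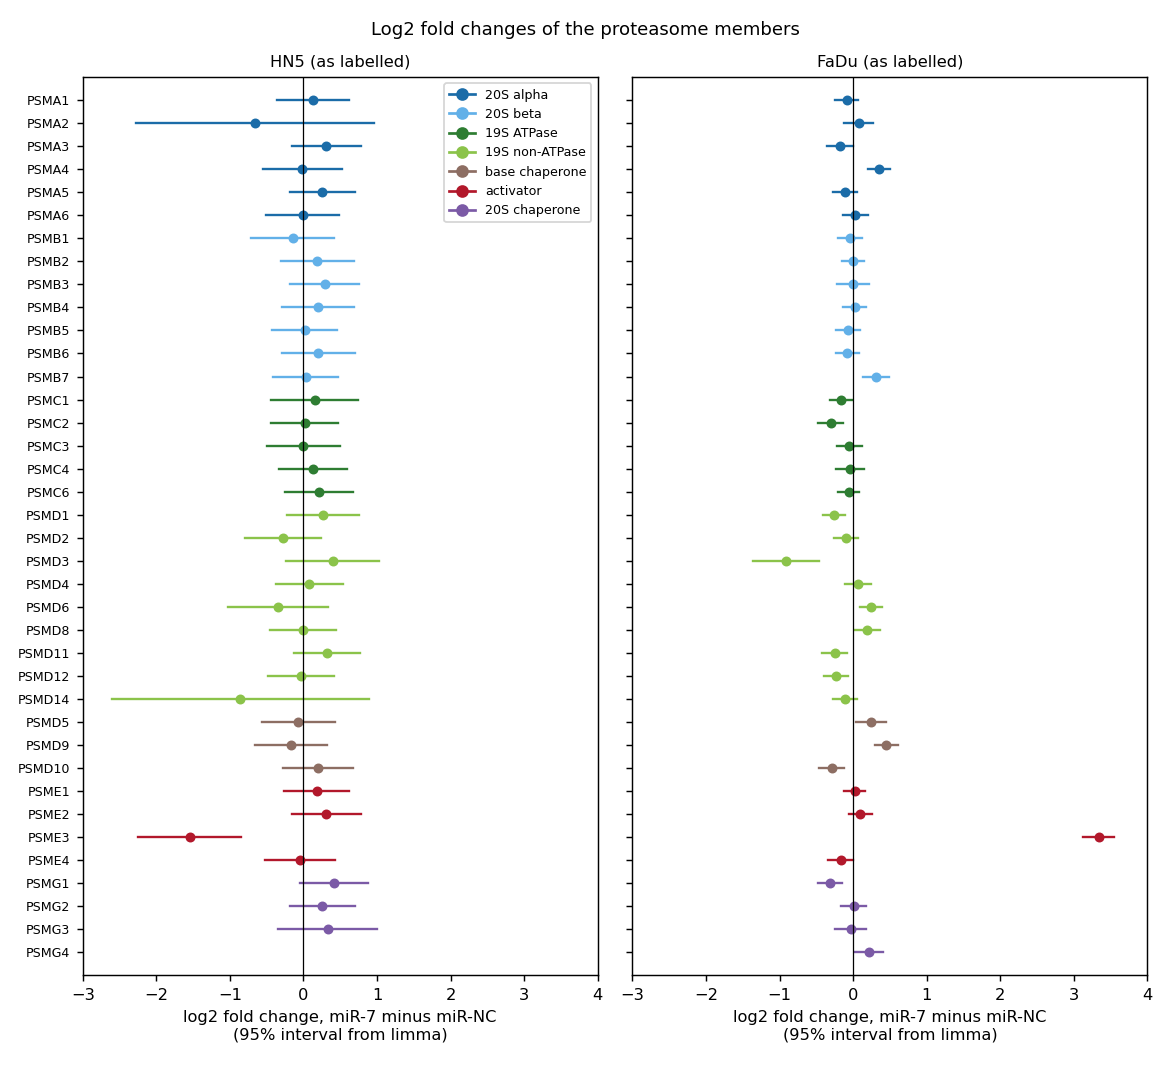
Log2 fold change (miR-7 minus miR-NC, horizontal axis) of each proteasome gene tested in HN5 (left) and FaDu as labelled (right), coloured by its place in the complex. Points are estimates and bars 95% intervals from limma. PSME3 stands at -1.55 in HN5 and 3.34 in FaDu, PSMD3 at -0.91 in FaDu, and the wide HN5 bars of PSMA2 and PSMD14 come with 1 low miR-7 array.

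The 20S core was measured through 6 alpha and 7 beta subunits. In HN5 0 of the 13 were called by limma and 0 had an unadjusted p under 0.05, with a median log2 fold change of 0.13. The lowest alpha subunit was PSMA2, at 10.51 and 8.46 with miR-7, against 10.003 and 10.28 with miR-NC (log2 fold change -0.65, adjusted p = 0.661). Its groups overlapped, and only miR-7 replicate 2, the array that stood apart, was low. Without that array the value was 0.37. The highest alpha subunit in HN5 was PSMA3 (0.31). Among the beta subunits the HN5 values ran from -0.15 (PSMB1) to 0.29 (PSMB3).

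In FaDu 2 of the 13 core subunits were higher and 0 lower, with a median of -0.0034 and against 20% and 21.8% of all genes tested. The number at an unadjusted p under 0.05 was also 2 higher and 0 lower, beside 2356 higher and 2651 lower of the 9997 genes tested. PSMA4, an alpha ring subunit, measured 12.45, 12.46 and 12.39 in arrays labelled miR-7, against 12.04, 12.09 and 12.12 in arrays labelled miR-NC, and the groups did not overlap. It was 1.28-fold higher (log2 fold change 0.35, standard error 0.065, limma adjusted p = 0.00305) and kept its call under every alternative tried. PSMB7, which carries the trypsin-like site, measured 12.54, 12.62 and 12.56 in arrays labelled miR-7, against 12.28, 12.36 and 12.14 in arrays labelled miR-NC. Here too the arrays labelled miR-7 were the higher ones (log2 fold change 0.32, limma adjusted p = 0.0122), and the call ended with median scaling (0.37, adjusted p = 0.0562). PSMB5 (-0.068) and PSMB6 (-0.079), which carry the chymotrypsin-like and caspase-like sites, were not called. The lowest values were those of PSMA3 (-0.17) in the alpha ring and PSMB6 in the beta ring.

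The 19S particle was measured through 5 ATPases and 9 other subunits of its base and lid. In HN5 0 of the 14 were called by limma and 0 had an unadjusted p under 0.05. The ATPases, which unfold the substrate, lay between -0.00085 (PSMC3) and 0.22 (PSMC6). PSMD14, the lid deubiquitinase that removes ubiquitin chains from substrates, had the lowest HN5 value of the 14, at 11.36 and 9.12 with miR-7, against 11.07 and 11.14 with miR-NC (log2 fold change -0.86, limma adjusted p = 0.598). As with PSMA2, only miR-7 replicate 2 was low, and without it the value was 0.26. Without miR-7 replicate 1 instead, PSMA2 (-1.68), PSMD14 (-1.99) and PSME3 were called lower in a fit that rests on that low array. PSMD3, a scaffold subunit of the lid, had the highest HN5 value (0.40, limma adjusted p = 0.516).

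In FaDu 5 of the 14 subunits were lower and 1 higher, and 11 of the 14 estimates were below 0, with a median of -0.10, against 21.8% lower, 20% higher and 5387 of 9997 estimates below 0 over all genes tested. With median scaling PSMD3 was the only 1 of these 6 still called. PSMD3 was the lowest, at 8.12, 8.38 and 8.14 in arrays labelled miR-7, against 9.21, 9.52 and 8.65 in arrays labelled miR-NC. The groups did not overlap, and the SD was 0.14 in arrays labelled miR-7 and 0.44 in arrays labelled miR-NC, which were spread widely. The log2 fold change of PSMD3 was -0.91 with a standard error of 0.19, or 1.88-fold lower (limma adjusted p = 0.00627), a call that ended under the methods' t-test (adjusted p = 0.0731). The ATPase PSMC2 measured 11.87, 11.83 and 11.76 in arrays labelled miR-7, against 12.12, 12.21 and 12.04 in arrays labelled miR-NC. All of its arrays labelled miR-7 were below those labelled miR-NC (log2 fold change -0.31, limma adjusted p = 0.0111). PSMD1, the large base scaffold, and the lid subunits PSMD11 and PSMD12 fell by 0.25, 0.25 and 0.23 on the log2 scale.

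PSMD6, another lid subunit, was the 1 of the 14 called higher in FaDu, at 11.92, 11.87 and 11.92 in arrays labelled miR-7, against 11.64, 11.69 and 11.65 in arrays labelled miR-NC. The groups did not overlap (log2 fold change 0.24, limma adjusted p = 0.0157), and the call ended with median scaling (adjusted p = 0.217) and without FaDu miR-7 replicate 1 or FaDu miR-7 replicate 3 (adjusted p = 0.0543 for both). PSMD8, a lid subunit, had a value of 0.19 with no overlap (adjusted p = 0.0689). The ubiquitin receptor PSMD4 (0.061), the base scaffold PSMD2 (-0.091) and PSMD14 (-0.11) were not called. Without FaDu miR-7 replicate 3 the number of proteasome genes called lower in FaDu was 4, with PSMC2, PSMD1, PSMD3 and PSMG1 left.

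The base assembly chaperones PSMD5, PSMD9 and PSMD10 hold the ATPases while the 19S base is built and are not part of the finished particle. In HN5 they lay between -0.17 (PSMD9) and 0.20 (PSMD10), with 0 called by limma and 0 at an unadjusted p under 0.05. PSMD9 was dim in FaDu, at 6.64, 6.59 and 6.71 in arrays labelled miR-7, against 6.14, 6.25 and 6.19 in arrays labelled miR-NC. It was 1.37-fold higher (log2 fold change 0.45, standard error 0.069, limma adjusted p = 0.00112), the highest estimate after PSME3, and its size was 0.19 without background correction and 0.13 on the authors' log2 values. PSMD10, also known as gankyrin, ran the other way, at 10.97, 10.87 and 10.82 in arrays labelled miR-7, against 11.12, 11.26 and 11.15 in arrays labelled miR-NC (log2 fold change -0.29, adjusted p = 0.0141). Neither gene's groups overlapped. The PSMD10 call ended with median scaling (limma adjusted p = 0.156) and without FaDu miR-7 replicate 3 (adjusted p = 0.0574). PSMD5 had a value of 0.25 (adjusted p = 0.0545).

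PSMG1 to PSMG4 pair up to assemble the alpha ring of the 20S core. PSMG1 measured 11.61 and 11.50 with miR-7, against 11.06 and 11.22 with miR-NC in HN5, and the groups did not overlap (log2 fold change 0.41, limma adjusted p = 0.418). In FaDu it measured 9.76, 9.72 and 9.62 in arrays labelled miR-7, against 10.06, 10.02 and 9.96 in arrays labelled miR-NC, again with no overlap (log2 fold change -0.32, limma adjusted p = 0.00735). The FaDu call of PSMG1 ended with median scaling (limma adjusted p = 0.0709). Its HN5 estimate was the highest of the 37 genes and its FaDu estimate the lowest after PSMD3. PSMG2 and PSMG3 were not called in either line. PSMG4, named on the FaDu array type only, had a value of 0.22 (adjusted p = 0.0654). PSMF1, the proteasome inhibitor PI31, and the tissue-restricted core subunits PSMA8, of the testis, and PSMB11, of the thymus, were not tested. Their probes were detected on 0 of 4 HN5 arrays and 0 of 6 FaDu arrays and were not above background. PSMF1 was read by 1 probe on each array type, so a silent transcript and a failed probe cannot be told apart.

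The difference between the lines was tested per shared probe as the HN5 log2 fold change minus the FaDu log2 fold change. Of 37 proteasome genes, 1 difference was below 0 and 1 above 0 at an adjusted p under 0.05, against 7.89% and 7.69% of the 8430 genes compared, or 15.6% in either direction. PSME3 was the gene below 0, with a difference of -4.88 (standard error 0.30, 95% interval -5.60 to -4.16, adjusted p = 0.00031 over all genes from limma's estimates). PSMD3 was the gene above 0, with a difference of 1.31 (standard error 0.32, adjusted p = 0.0197). Without HN5 miR-NC replicate 1 or HN5 miR-NC replicate 2 the PSMD3 difference was 1.16 and 1.45 and no longer passed (adjusted p = 0.216 and 0.113), whereas PSME3 passed with an adjusted p of at most 0.0276 under every alternative that kept the FaDu labels. Without HN5 miR-7 replicate 1, 4 differences were below 0, with PSMA2, PSMD14 and PSMD6 added, and without HN5 miR-7 replicate 2 there were 2, with PSMD9 added. PSMG1 stood just outside the threshold with a difference of 0.73 (95% interval 0.26 to 1.20, adjusted p = 0.0521). The differences of PSME1 (0.16, 95% interval -0.29 to 0.61), PSME2 (0.21, -0.26 to 0.69) and PSME4 (0.12, -0.36 to 0.61) had intervals that held 0.

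These differences rest on the FaDu labels. With the sign of every FaDu effect turned, an alternative added after the data were seen, 0 proteasome genes differed below 0 and 0 above 0 by limma's estimates, against 0.0119% and 0.119% of all genes compared. At an unadjusted p under 0.05 there were 0 below and 1 above, PSME3. Its turned difference was 1.79 (95% interval 1.07 to 2.51, adjusted p = 0.128), and PSME3 would then be lower in both lines. The turned difference of PSMD3 was -0.52 (95% interval -1.22 to 0.19, adjusted p = 0.589). Both differences thus have the opposite sign under the turned labels and miss the threshold. For PSMG1 the turned difference was 0.097 (95% interval -0.38 to 0.57, adjusted p = 0.875 by limma's estimates).

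**Figure D3:**
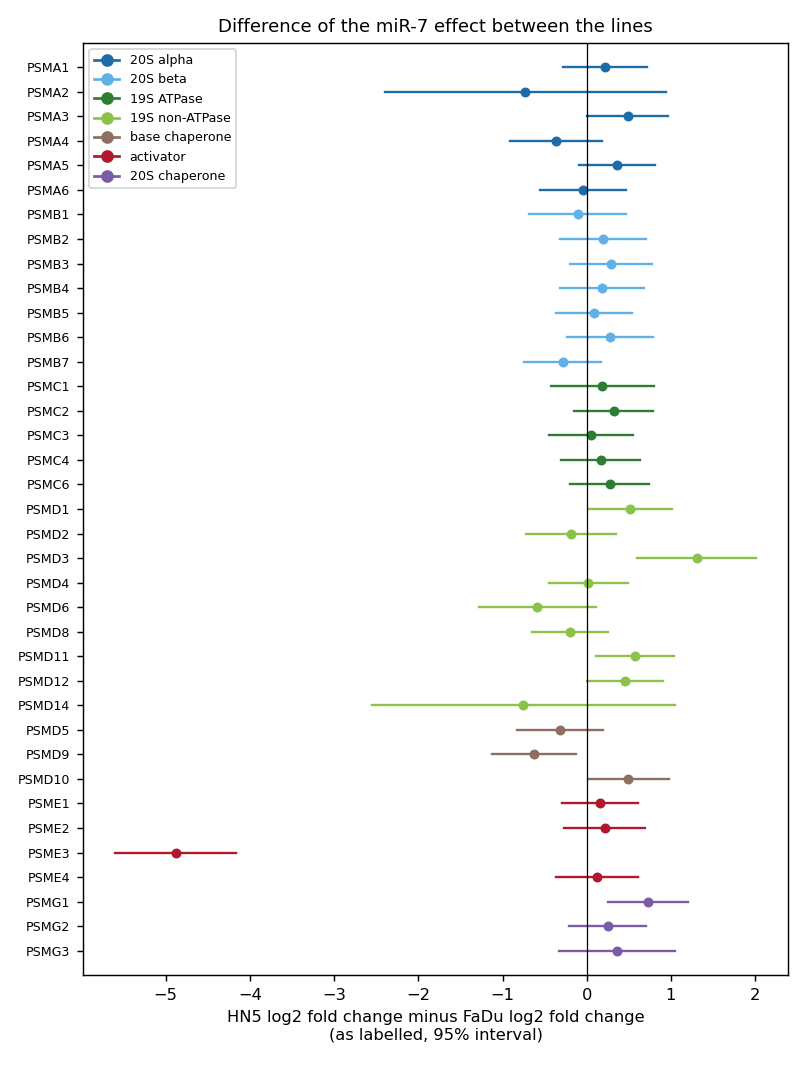
HN5 log2 fold change minus FaDu log2 fold change as labelled (horizontal axis, with 95% interval) for the 37 proteasome genes measured by a shared probe, coloured by their place in the complex. PSME3 stands at -4.88 and PSMD3 at 1.31, and the difference of PSMG1 is 0.73. With the FaDu sign turned, which is not drawn, PSME3 would stand at 1.79 and PSMD3 at -0.52.

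Other genes of the pathway were read from a list of proteasome cofactors, shuttles, regulators and immunoproteasome subunits. In HN5 0 of 23 tested were called by limma, and 5 had an unadjusted limma p under 0.05. Over all 9549 genes tested, 537 lower and 724 higher had such a p. The same 5 passed the methods' thresholds on limma's p-values, 2 lower and 3 higher, against 4.41% and 6.01% of all genes tested. UBE3C, a ubiquitin ligase that works at the proteasome, measured 11.28 and 11.19 with miR-7, against 12.58 and 12.20 with miR-NC (log2 fold change -1.15, limma adjusted p = 0.123). UBQLN4, a shuttle that carries ubiquitinated proteins to the proteasome, measured 9.92 and 10.51 with miR-7, against 11.47 and 11.33 with miR-NC (log2 fold change -1.19, adjusted p = 0.16). In both genes the miR-7 arrays were the lower ones, with no overlap. The other 3 were the interferon-inducible catalytic subunits that replace their constitutive counterparts in the immunoproteasome: PSMB8 had a value of 0.75, PSMB9 of 0.70 and PSMB10 of 0.62, with limma adjusted p-values of 0.268, 0.266 and 0.349.

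In FaDu limma called 4 of 22 pathway genes tested lower and 5 higher, against 21.8% and 20% of all genes tested. UBQLN4 measured 10.77, 10.60 and 10.65 in arrays labelled miR-7, against 8.80, 8.63 and 8.88 in arrays labelled miR-NC (3.75-fold higher, log2 fold change 1.91, limma adjusted p = 2.66e-06). UBE3C measured 11.70, 11.73 and 11.72 in arrays labelled miR-7, against 10.54, 10.26 and 10.44 in arrays labelled miR-NC (2.47-fold higher, log2 fold change 1.31, adjusted p = 1.19e-05). Neither gene's groups overlapped. VCP, the segregase that extracts ubiquitinated proteins, fell by 0.31 and UCHL5, a proteasome deubiquitinase, fell by 0.29 on the log2 scale. PSMB9 was higher by 0.31. With median scaling these 3 calls ended (adjusted p = 0.089 for VCP, 0.106 for UCHL5 and 0.18 for PSMB9), and that of PSMB9 also ended with the mean of the detected probes (0.20, adjusted p = 0.0731), under the methods' t-test (adjusted p = 0.0554) and without FaDu miR-7 replicate 2 (adjusted p = 0.061). PSMB8 (0.021) and PSMB10 (-0.16) were not called. Between the lines, UBQLN4 differed by -3.10 and UBE3C by -2.46 (adjusted p = 0.000984 and 0.000976), and the differences of PSMB8 (0.73, adjusted p = 0.0876), PSMB9 (0.38, adjusted p = 0.285) and PSMB10 (0.78, adjusted p = 0.0828) did not pass. With the FaDu sign turned, the differences were 0.72 for UBQLN4 and 0.15 for UBE3C, and neither passed (adjusted p = 0.478 and 0.82).

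**Figure D4:**
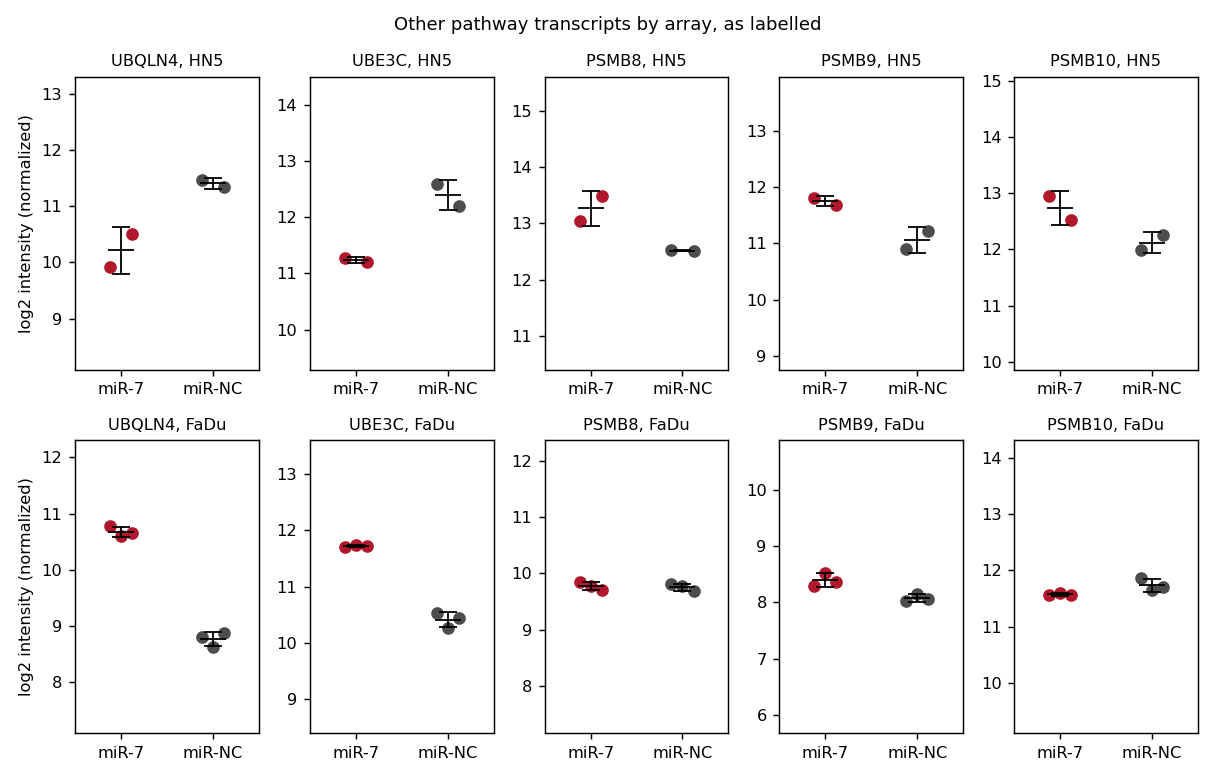
Log2 intensity of UBQLN4, UBE3C, PSMB8, PSMB9 and PSMB10 on each HN5 array (upper panels) and FaDu array (lower panels), miR-7 in red at left and miR-NC in grey at right as labelled, with mean ± SD. UBQLN4 and UBE3C lie lower with miR-7 in HN5 (differences -1.19 and -1.15, not past the adjusted threshold) and higher in FaDu arrays labelled miR-7 (1.91 and 1.31).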

How the data were processed

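Expression was measured in both lines on RNA taken 24 h after transfection. The authors deposited scanner intensities, 1 per probe and array, neither background-corrected nor normalized. The deposited detection p-value column holds 1 minus p and was turned round. The authors also deposited log2 values, made per the study's methods with lumi (R 2.11.0, per the submitters' processing notes) and quantile normalization in Partek. The cells of these tables do not follow the identifiers beside them (Spearman correlation with the intensities 0.010 to 0.020); once the cells were laid out in the order of the intensity probes, 0 ranks differed by more than 50. The HN5 table lacked 4 values. They served as an alternative only.

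Probes were named through the platform annotation: 27577 HN5 and 30112 FaDu probes had 1 gene, 13 and 8 several, and 21212 and 17110 none. Intensities were processed with neqc (limma 3.58.1, R 4.3.3, offset 16). A probe was kept if every array of 1 group or more detected it (p under 0.01), and the brightest kept probe stood for its gene. Every proteasome gene tested was detected on every array. Up to 13 of them had several kept probes, whose log2 fold changes differed by at most 0.36. lmFit and eBayes compared the groups within each line, with Benjamini-Hochberg adjustment over all genes tested. Differences between lines used the brightest shared probe, both moderated standard errors and Welch-Satterthwaite degrees of freedom. The procedure was tested on simulated data. Summaries and figures used Python 3.11.15, pandas 2.3.3 and Matplotlib 3.10.9.

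The genes and lists were chosen with earlier results of these data known. Named genes are the activators and inhibitor, the lowest and highest of each subgroup per line, those that differ between lines, and the 4 pathway genes with the smallest p per line. Others were chosen after their values were seen. Alternatives were median scaling, no background correction, the authors' values, 2 other detection filters, the mean of the detected probes, the replicate number as a block, the methods' t-test, leaving out each array and, added after the data were seen, the other PSME3 probe and the FaDu sign turned.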

Additional observations from a re-analysis of the deposited data

Results flagged for a closer look

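Both proteasome genes whose difference between the lines passed its own test stand out. PSME3 had an HN5 effect minus FaDu effect of -4.88, from a log2 fold change of -1.55 in HN5 and 3.34 in FaDu as labelled. PSMD3 had a difference of 1.31, from 0.40 in HN5 and -0.91 in FaDu as labelled. Each line lies on its own array type, so line and array type cannot be told apart. Both differences also rest on the FaDu labels, whose exchange was not tested: with the FaDu sign turned, they were 1.79 for PSME3, then lower in both lines, and -0.52 for PSMD3, and neither passed (adjusted p = 0.128 and 0.589).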

How the results depend on the processing

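PSME3 kept its direction in each line, and its call in FaDu and between the lines, under every alternative run that kept the FaDu labels. With the FaDu sign turned, added after the data were seen, the differences between the lines turned sign (PSME3 1.79, PSMD3 -0.52), and 0 proteasome genes were below 0 and 0 above 0. In HN5 it passed with detection required on every array (-1.55, limma adjusted p = 0.0332, 1 gene lower) and with the other probe (-1.90). With arrays left out it ranged from -1.79 to -1.29 in HN5, 3.27 to 3.43 in FaDu and -5.13 to -4.63 between the lines. Counts with arrays left out were 0 to 3 lower in HN5 (by the methods' thresholds 1 to 4 lower and 0 to 1 higher), 4 to 7 lower and 4 to 6 higher in FaDu, and 1 to 4 below 0 and 0 to 2 above 0 between the lines. An HN5 fit without an array leaves 1 in a group, which is assumed to vary like the other group. The methods' t-test gave 0 lower by the methods' thresholds in HN5. Median scaling left 1 lower and 3 higher in FaDu, and there were 8 higher both without background correction and on the authors' values (10 lower in each). Over all 9997 genes tested in FaDu, calls were 2395 lower and 2083 higher without background correction. On the authors' values they were 2321 lower and 2027 higher. Between the lines 2 genes, PSMD3 and PSMG1, were above 0 without background correction, on the authors' values, with detection on every array, with no detection filter and with the mean of the detected probes. The methods' t-test was not run between the lines. Over all genes, HN5 calls were 12 lower and 17 higher, but 66 and 84 with detection required on every array and 0 and 0 with no filter or with the mean of the detected probes, and FaDu calls were 2176 and 2003, but 1481 and 1221 with median scaling.

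Replicate numbers were not used to pair the samples. The deviations of same-numbered arrays from their group means correlated at 0.000499 in HN5 and 0.0570, -0.0322 and 0.0283 in FaDu. With 2 arrays in each HN5 group the deviations mirror each other, so both numbers give the same correlation. These values do not settle whether the numbers pair the samples. With the replicate block, PSME3 in HN5 had a limma adjusted p of 0.133, and 7 proteasome genes were lower and 6 higher in FaDu. Over all 9997 genes tested in FaDu the block gave 2016 lower and 1895 higher. Arrays correlated best with their own number in HN5 and for numbers 1 and 3 in FaDu, but not for number 2 in FaDu.

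Elsewhere signs turned for genes that were called neither in the values reported nor with the turned sign. Median scaling gave -0.0045 for PSMB7, -0.049 for PSMC2, -0.027 for PSMC4 and -0.069 for VCP in HN5, and 0.10 for PSMB1, 0.11 for PSMB3, 0.054 for PSMB6 and -0.020 for PSMB8 in FaDu. The mean of the detected probes gave 0.049 for PSMC4 in FaDu. With arrays left out the HN5 ranges were -1.68 to 0.37 for PSMA2, -0.21 to 0.18 for PSMA4, -0.37 to 0.086 for PSMB1, -0.0017 to 0.069 for PSMB7, -0.059 to 0.10 for PSMC2, -0.13 to 0.13 for PSMC3, -1.99 to 0.26 for PSMD14, -0.13 to 0.035 for PSME4, -0.51 to 0.25 for UCHL5 and -0.13 to 0.26 for VCP, and the FaDu ranges -0.065 to 0.0062 for PSMB1, -0.067 to 0.092 for PSMB3, -0.014 to 0.059 for PSMB8, -0.10 to 0.0051 for PSMC4, -0.0023 to 0.037 for PSME1 and -0.028 to 0.066 for PSMG2. PSMA2 and PSMD14 were called lower in HN5 without miR-7 replicate 1. The cause was not tested for any of these.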
